A study of Homo sapiens with 4 samples.

Results

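A group of 10 genes that extracellular signal-regulated kinase (ERK) signaling switches on in many cell types, most of which act back on the same pathway, was examined in the acute myeloid leukemia (AML) cell line OCI-AML3 with and without mtNPM1 KO. These were the Sprouty genes SPRY1, SPRY2 and SPRY4, the SPRED genes SPRED1 and SPRED2, the phosphatase genes DUSP4, DUSP5 and DUSP6, and the ETS factor genes ETV4 and ETV5. They were chosen by name for this role, with earlier results of these data known. They are 10 of the 58037 rows of a gene count table, and all 10 had a row.

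OCI-AML3 is an established human line that carries a heterozygous NPM1 mutation (mtNPM1), a heterozygous DNMT3A mutation and a homozygous NRAS mutation, all of which were present in both groups before editing. Cells were transfected with a guide RNA aimed at the mutated NPM1 allele (sgNPM1A) or with a control guide (sgRNA Ctrl), cultured for 72 h and lysed for total RNA sequencing. There were 2 libraries in each of the 2 conditions. The study described the libraries as biological replicates but used a single cell line with an already mutated NRAS, so the values describe transfected populations of that line, and the share of edited cells was not analysed here.

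Growth factor receptors pass their signal through the adaptor GRB2 and the exchange factor SOS to RAS, and from there through RAF and MEK to ERK. Active ERK raises transcription of its own brakes. Sprouty proteins act between receptor and RAS or RAF, SPRED proteins bring the RAS-inactivating protein neurofibromin to the membrane, and dual-specificity phosphatases remove the phosphates that keep ERK and related kinases active. The ETS factors ETV4 and ETV5 are transcribed in response to the pathway and carry its output on to other promoters. Levels of these genes are often read as a record of recent ERK activity, and ERK phosphorylation itself was not measured in these libraries.

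The libraries held between 25069484 and 28276391 counts, and mitochondrial genes took between 8.37% and 8.63% of them. A gene with 3 counts, the floor used here, corresponded to 0.108 to 0.118 CPM, the count scaled to the normalized library total. After a filter on low counts, 15718 genes were tested with edgeR's quasi-likelihood test, and a gene was called when its Benjamini-Hochberg adjusted p was below 0.05 and its fold was at least 1.25. By this rule 20.8% of tested genes were called, 10.3% lower and 10.5% higher after mtNPM1 KO. Defining myeloid markers were detected in every library (8 of 8 tested), whereas CD3E, CD3D, HBB, EPCAM and CDH5 were at 0 counts in all 4 libraries.

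The targeted gene, NPM1 (ENSG00000181163.13, chr5:171387116-171410900 in GRCh38), was read at 1319 and 1385 CPM in sgRNA Ctrl and at 1189 and 1132 CPM in sgNPM1A. Both sgNPM1A libraries were below both controls, with means of 1161 ± 40.7 against 1352 ± 47.1 CPM (SD, n = 2). The log2 fold change was -0.22 (SE 0.07, edgeR adjusted p = 0.0360), which did not reach the fold threshold. The counts sum the mutated and the normal allele, so they do not measure mtNPM1 on its own, and NPM1 shares 8.86% of its 50-base transcript words with other annotated genes.

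Of the 9 feedback genes that could be tested, 4 fell after mtNPM1 KO (SPRY2, SPRY4, SPRED1 and DUSP4), against 10.3% of all tested genes called lower. DESeq2 called 3 of them lower, SPRY2, SPRY4 and SPRED1, against 8.23% of the genes it tested. None rose (0 by edgeR, 0 by DESeq2 and 0 by limma, with 1 gene, SPRED2, higher at an unadjusted p below 0.05), and 10.5% of all tested genes were called higher. The median log2 fold change over the 9 genes was -0.17, against 0.00 over all tested genes. Since the genes were chosen with earlier results of these data known, these comparisons describe the group and do not test it. In 7 of the 9 the libraries of the conditions did not overlap, 5 lower and 2 higher, and the same was true of 63.1% of all tested genes, 31.7% lower and 31.4% higher. Added together, the 10 genes stood at 281.2 and 286.9 CPM in sgRNA Ctrl and at 235.5 and 233.0 CPM in sgNPM1A, so the summed level was lower in both edited libraries. The largest falls in mean CPM were those of SPRY4 (64.6 to 40.5), SPRY2 (56.7 to 40.0) and SPRED1 (23.9 to 14.3). The sum thus largely restates these genes. In such bulk libraries, fewer cells with a high level and less RNA in each cell cannot be told apart. With 2 libraries in each condition an exact permutation test of a single value cannot go below p = 0.333, so all p-values come from the fit across genes.

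**Figure D1:**
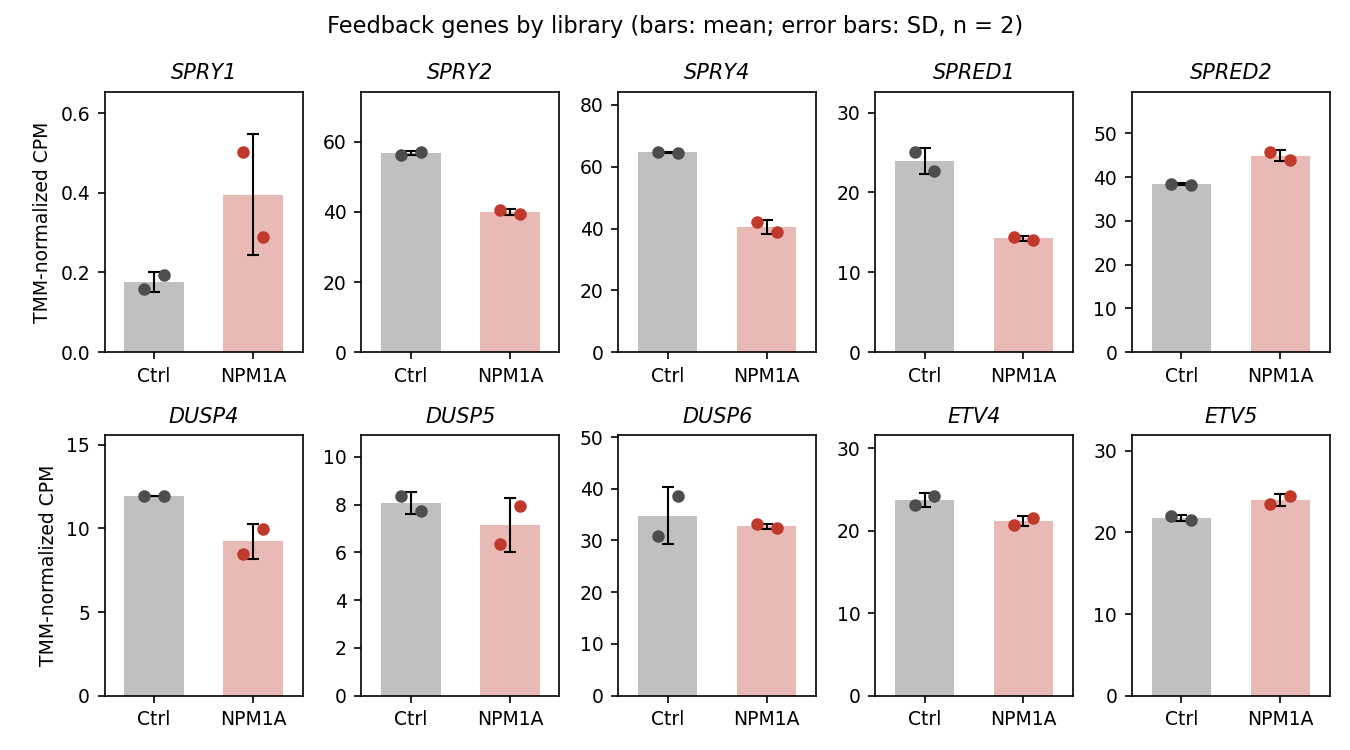
Level of each of the 10 feedback genes in TMM-normalized CPM, on a separate linear axis from 0 for each gene, with 1 point for each of the 4 libraries, bars at the mean of each condition and error bars of 1 SD (n = 2). The sgNPM1A points of SPRY2 (40.6 and 39.4), SPRY4 (42.1 and 38.8) and SPRED1 (14.5 and 14.0) lie below their controls, while the points of DUSP5 and DUSP6 overlap.

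Start-site sequence was shown for the genes with the clearest fall and for SPRED2, the relative of SPRED1 whose value lay on the other side of the controls. The 250 bases before the RefSeq start (GRCh38.p14) are given 5′ to 3′ on the gene's strand. Capitals mark CCGGAA, a form of the site that ETS factors bind, and GGGCGG, the box that Sp1 binds, on either strand. Shorter and other forms of the ETS site were not searched. The windows are chr13:80341127-80341376 (minus strand) for SPRY2, chr5:142324248-142324497 (minus strand) for SPRY4, chr15:38252586-38252835 (plus strand) for SPRED1 and chr2:65432600-65432849 (minus strand) for SPRED2. The RefSeq start used for SPRY4 lies inside the annotated span of that gene.
SPRY2: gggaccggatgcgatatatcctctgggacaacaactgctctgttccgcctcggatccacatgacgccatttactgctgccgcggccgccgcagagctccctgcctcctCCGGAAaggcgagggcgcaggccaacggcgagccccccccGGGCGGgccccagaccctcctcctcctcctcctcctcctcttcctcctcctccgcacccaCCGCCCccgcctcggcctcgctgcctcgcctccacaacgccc
SPRY4: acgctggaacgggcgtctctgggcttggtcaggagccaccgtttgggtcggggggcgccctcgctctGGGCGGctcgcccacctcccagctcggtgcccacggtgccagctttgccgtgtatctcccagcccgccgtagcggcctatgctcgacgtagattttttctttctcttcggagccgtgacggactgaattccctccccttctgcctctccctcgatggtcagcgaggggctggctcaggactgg
SPRED1: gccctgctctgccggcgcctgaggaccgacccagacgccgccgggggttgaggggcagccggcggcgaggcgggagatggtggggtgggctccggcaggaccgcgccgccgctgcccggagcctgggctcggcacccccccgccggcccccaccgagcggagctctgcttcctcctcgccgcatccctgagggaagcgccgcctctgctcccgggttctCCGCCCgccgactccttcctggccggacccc
SPRED2: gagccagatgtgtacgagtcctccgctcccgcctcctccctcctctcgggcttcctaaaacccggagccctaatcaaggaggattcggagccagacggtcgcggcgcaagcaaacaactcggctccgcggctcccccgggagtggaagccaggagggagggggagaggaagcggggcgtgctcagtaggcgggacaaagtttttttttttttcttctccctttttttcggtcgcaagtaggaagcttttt
The SPRY2 window held CCGGAA at -142 to -137 and GGGCGG at -102 to -97 and, on the opposite strand, at -42 to -37, counted from the start. SPRY4 held GGGCGG at -183 to -178, SPRED1 held it on the opposite strand at -31 to -26, and the SPRED2 window held neither. Of 35116 RefSeq windows of this length, 14.5% held CCGGAA and 42.6% held GGGCGG. The other motifs, searched on both strands, had no match in the windows of SPRY1, SPRY2, SPRY4, SPRED1, SPRED2 and DUSP6, which were the 6 members with an entry. They were the AP-1 site TGACTCA (4.20% of all windows), the cyclic AMP response element TGACGTCA (1.65%), the MEIS site TGACAG (13.0%) and the CArG box of SRF (1.16%). The windows were rich in G and C, 70.4% for SPRY2, 65.6% for SPRY4 and 78.4% for SPRED1, against 58.8% for SPRED2 and a median of 58% over all windows.

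The Sprouty genes with measurable transcript fell. SPRY2 (ENSG00000136158.11, chr13:80335976-80341126), a Sprouty that binds GRB2 after growth factor treatment and limits RAS activation, had 1432 and 1479 counts in sgRNA Ctrl and 1132 and 1094 in sgNPM1A, or 56.3 and 57.1 against 40.6 and 39.4 CPM. Both edited libraries lay well under both controls, and replicates of a condition differed by little. The mean fell by 29.5%, from 56.7 ± 0.546 to 40.0 ± 0.857 CPM (SD, n = 2), with a log2 fold change of -0.50 (SE 0.08, 95% interval -0.67 to -0.34, edgeR adjusted p = 0.000559). All 13 alternative settings kept the call, with log2 fold changes between -0.54 and -0.48.

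SPRY4 (ENSG00000187678.8, chr5:142310430-142325021), an inhibitor of receptor signaling upstream of RAS, was read at 64.8 and 64.5 CPM in sgRNA Ctrl and at 42.1 and 38.8 CPM in sgNPM1A, from 1646, 1671, 1173 and 1078 counts. The control libraries were nearly equal, and the lower of them was still well above the higher edited library. Its level fell by 37.4%, a log2 fold change of -0.68 (SE 0.08, 95% interval -0.85 to -0.50, edgeR adjusted p = 8.15e-05), and 13 of 13 alternatives kept the call. The antisense transcript SPRY4-AS1, which overlaps the gene, had 36 and 46 counts in sgRNA Ctrl and 26 and 16 in sgNPM1A, against 1078 or more for SPRY4 in every library. Strand handling during counting was not given in the sources used here.

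SPRY1 (ENSG00000164056.10, chr4:123396795-123403760), a Sprouty relative with the same role, was close to absent, with 4 and 5 counts in sgRNA Ctrl and 14 and 8 in sgNPM1A. Both edited libraries were above both controls, at levels where each value rests on few reads. The gene did not pass the count filter. Summed counts of 9 and 22 gave a depth-adjusted ratio of 2.25 with an exact interval of 0.998 to 5.56 that covers counting error only, and fitted without a filter its log2 fold change was 1.15 (SE 0.62, edgeR adjusted p = 0.258). SPRY2 and SPRY4 made up nearly all Sprouty reads, and the summed Sprouty level was 121.2 and 121.8 CPM in sgRNA Ctrl and 83.2 and 78.5 CPM in sgNPM1A. Within a library, SPRY2 counts were 0.870 and 0.885 of SPRY4 counts in the controls and 0.965 and 1.01 in the edited cells.

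Of the SPRED genes, SPRED1 fell and SPRED2 did not pass the test. SPRED1 (ENSG00000166068.12, chr15:38252836-38357249), which recruits neurofibromin to RAS, had 25.1 and 22.7 CPM in sgRNA Ctrl and 14.5 and 14.0 CPM in sgNPM1A, from 637, 589, 403 and 390 counts. The edited libraries were close to each other and far below either control. Mean expression fell by 40.4%, from 23.9 ± 1.64 to 14.3 ± 0.292 CPM (SD, n = 2), with a log2 fold change of -0.75 (SE 0.10, 95% interval -0.97 to -0.53, edgeR adjusted p = 0.000244). This was the largest change by size among the 9 tested members, and the call held in 13 of 13 alternatives, with values between -0.81 and -0.67.

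SPRED2 (ENSG00000198369.9, chr2:65307175-65432599), which shares the neurofibromin-binding role, was read at 38.5 and 38.1 CPM in sgRNA Ctrl and at 45.7 and 43.9 CPM in sgNPM1A. Here both edited libraries were the higher ones. The log2 fold change of 0.23 (SE 0.08, 95% interval 0.05 to 0.40, edgeR adjusted p = 0.0542) missed both thresholds, and no alternative of the 13 called it. The ratio of SPRED1 to SPRED2 counts within a library was 0.651 and 0.596 in sgRNA Ctrl and 0.316 and 0.320 in sgNPM1A. This ratio needs no scaling between libraries, and its edited values lay clear of the controls. Summed, the SPRED genes ranged from 60.9 to 63.6 CPM in the controls and from 58.0 to 60.2 CPM in the edited cells.

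Among the phosphatases only DUSP4 passed the call, and it did so narrowly. DUSP4 (ENSG00000120875.8), a nuclear phosphatase that acts on ERK and also on the JNK and p38 kinases, had 304 and 310 counts in sgRNA Ctrl and 237 and 277 in sgNPM1A, or 12.0 and 12.0 against 8.50 and 9.98 CPM. The controls were equal to within rounding, and the edited libraries were lower but apart from each other. Its level fell by 22.8%, with a log2 fold change of -0.37 (SE 0.12, 95% interval -0.65 to -0.10, edgeR adjusted p = 0.0471). DESeq2 did not call it (adjusted p = 0.138), and leaving out any 1 of the 4 libraries ended the call, with log2 fold changes from -0.49 to -0.26 and edgeR adjusted p from 0.0589 to 0.381.

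DUSP5 (ENSG00000138166.5, chr10:110497907-110511533), a nuclear phosphatase specific to ERK, was read at 8.38 and 7.72 CPM in sgRNA Ctrl and at 6.35 and 7.96 CPM in sgNPM1A. The higher edited library lay between the controls, so the conditions overlapped. Its log2 fold change was -0.17 (SE 0.15, 95% interval -0.49 to 0.15, edgeR adjusted p = 0.442), an interval that does not exclude a fall as large as that of DUSP4. The DUSP5 value was -0.016 without sgNPM1A replicate 1 and -0.34 without sgNPM1A replicate 2, and no alternative called it. DUSP6 (ENSG00000139318.7, chr12:89347235-89352501), the cytoplasmic ERK phosphatase that is often used as a readout of the pathway, had 30.9 and 38.7 CPM in sgRNA Ctrl and 33.1 and 32.4 CPM in sgNPM1A. The edited libraries fell between the controls, whose own spread (34.8 ± 5.49 CPM, SD, n = 2) was wider than the difference of the means. The log2 fold change of -0.09 (SE 0.11, edgeR adjusted p = 0.597) had a 95% interval of -0.32 to 0.15, which does not reach a fall of the size measured for SPRY2, SPRY4 or SPRED1, and its sign turned when sgRNA Ctrl replicate 2 was left out (0.0862). An annotated antisense gene shares 24.7% of the 50-base words of DUSP6 and itself had 3 to 7 counts in each library.

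Within a library, SPRY4 counts were 2.09 and 1.67 times those of DUSP6 in sgRNA Ctrl and 1.27 and 1.20 times in sgNPM1A. For SPRY2 over DUSP6 the corresponding values were 1.82 and 1.48 against 1.23 and 1.21. Both ratios were lower in each edited library than in either control, with the wider spread in the controls. The ratio of DUSP4 to DUSP6 was 0.387 and 0.309 in sgRNA Ctrl against 0.257 and 0.307 in sgNPM1A, so the nearest libraries of the conditions were almost equal.

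The PEA3 ETS factors did not pass the test and lay on opposite sides of their controls. ETV4 (ENSG00000175832.12, chr17:43527846-43546340) was read at 23.1 and 24.2 CPM in sgRNA Ctrl and at 20.7 and 21.6 CPM in sgNPM1A. Both edited libraries were lower, by a log2 fold change of -0.16 (SE 0.09, 95% interval -0.36 to 0.04, edgeR adjusted p = 0.224). ETV5 (ENSG00000244405.7, chr3:186046314-186109089) had 22.1 and 21.5 CPM in sgRNA Ctrl and 23.5 and 24.5 CPM in sgNPM1A, both edited libraries being higher. Its log2 fold change was 0.14 (SE 0.09, 95% interval -0.06 to 0.34, edgeR adjusted p = 0.297). Counts of ETV4 were 1.04 and 1.13 times those of ETV5 in sgRNA Ctrl and 0.882 and 0.880 times in sgNPM1A. The gene DGKG, a diacylglycerol kinase gene that overlaps ETV5 on the same strand in the annotation and shares 1.97% of its 50-base words, rose from 15 and 25 to 142 and 158 counts (log2 fold change 2.78, edgeR adjusted p = 9.42e-06), and its part in the ETV5 value was not tested. ETV4 overlaps DHX8 on the other strand, which had 2148 to 2423 counts in each library.

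**Figure D2:**
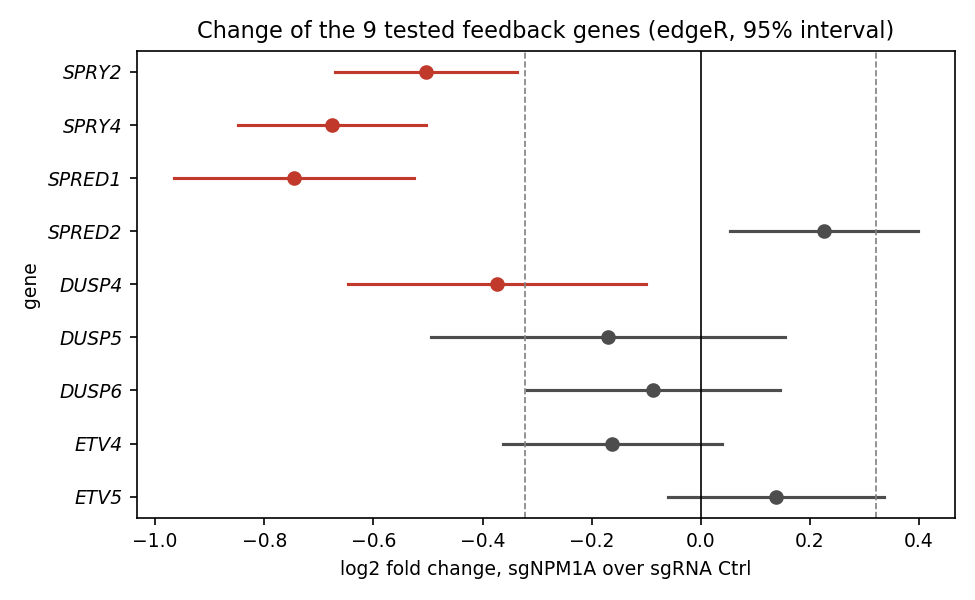
Log2 fold change of each tested feedback gene, sgNPM1A over sgRNA Ctrl, with its 95% interval from the edgeR fit (n = 2 libraries in each condition) and dashed lines at a fold of 1.25 in either direction. SPRED1 (-0.75), SPRY4 (-0.68), SPRY2 (-0.50) and DUSP4 (-0.37) have intervals wholly below 0, and SPRED2 (0.23) has one wholly above 0. The intervals of DUSP5, DUSP6, ETV4 and ETV5 include 0.

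Ranked among all 15718 tested genes, SPRED1 was lower than all but 6.26% of them, SPRY4 than all but 7.19% and SPRY2 than all but 10.5%. DUSP4 stood at 14.6%, DUSP5 at 28.9%, ETV4 at 29.7% and DUSP6 at 38.5%, while ETV5 and SPRED2 stood at 67.0% and 75.1%.

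**Figure D3:**
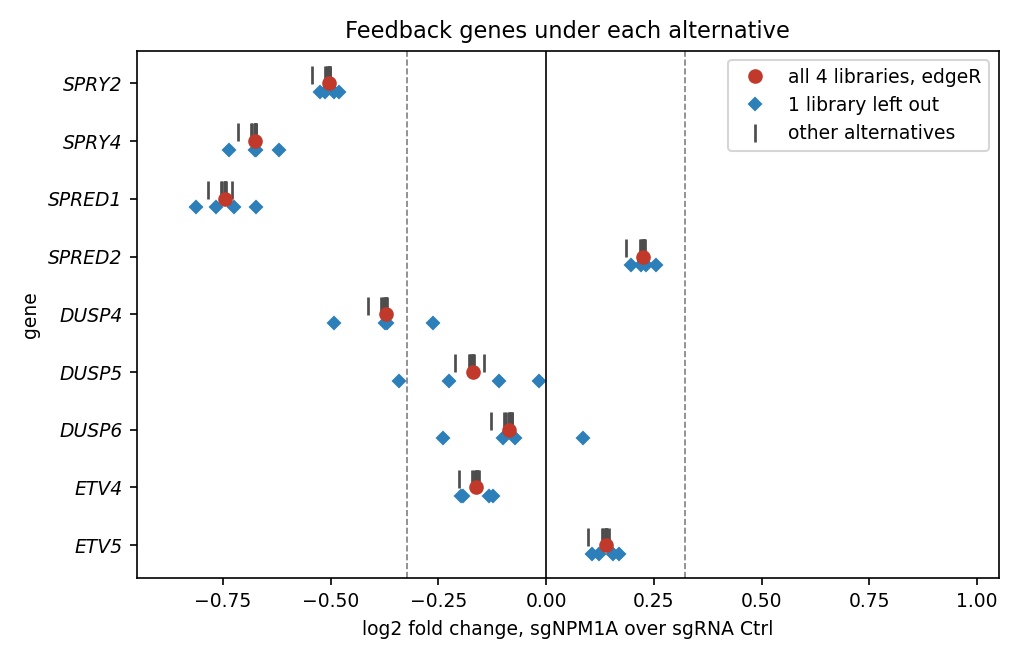
Log2 fold change of the 9 tested feedback genes, sgNPM1A over sgRNA Ctrl, as measured with all 4 libraries (red), with 1 library left out (blue) and under the other alternatives (grey ticks), with dashed lines at a fold of 1.25. SPRY2, SPRY4 and SPRED1 stay beyond the dashed line throughout, DUSP4 and, without sgNPM1A replicate 2, DUSP5 (-0.34) cross it, and DUSP6 crosses 0 in 1 setting.

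Levels of different genes were compared per kilobase of the canonical transcript. In sgRNA Ctrl, SPRY2 had the highest level at 24.8 ± 0.239 CPM per kilobase, followed by SPRY4 at 13.2 ± 0.0337, ETV4 at 10.1 ± 0.362, DUSP6 at 9.60 ± 1.51 and SPRED2 at 8.48 ± 0.0572 (SD, n = 2). ETV5 came next at 5.34, then SPRED1 at 3.29, DUSP5 at 3.25, DUSP4 at 2.15 and SPRY1 at 0.0673 CPM per kilobase. The neighbours ETV4 and DUSP6, DUSP6 and SPRED2, and SPRED1 and DUSP5 were closer than the spread of their replicates. In sgNPM1A, SPRY2 was still first at 17.5 ± 0.375 CPM per kilobase, but SPRY4 (8.25 ± 0.470) now followed SPRED2 (9.92 ± 0.277), ETV4 (9.05 ± 0.264) and DUSP6 (9.04 ± 0.130), the last pair being indistinguishable. SPRED1 at 1.96 was below DUSP5 at 2.89 and above DUSP4 at 1.66 CPM per kilobase.

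The genes whose log2 CPM across the 4 libraries, centred on their own mean, lay nearest to SPRED1 among 9647 protein-coding genes were IGF2BP2 (Euclidean distance 0.0126, log2 fold change -0.74), an RNA-binding protein gene, SERPINH1 (0.0306, -0.71), a collagen chaperone gene, and EPB41L2 (0.0317, -0.77), a membrane skeleton gene. Over so few libraries the measure says little more than that these genes fell by about the same amount.

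The wider pathway was read from 8 lists arranged by role, also chosen with earlier results known, with 86 of 119 genes tested. Of these 24 were called, 13 lower and 11 higher, or 27.9% against 20.8% of all tested genes, and the median log2 fold change was 0.00. In the central cascade of RAS, RAF, MEK and ERK genes, 1 of 15 tested genes rose and 0 fell by edgeR, DESeq2 or limma, with 2 lower at an unadjusted p below 0.05. The riser was KSR1, a scaffold for RAF and MEK, at 6.10 and 5.95 CPM in sgRNA Ctrl and 8.25 and 8.50 CPM in sgNPM1A (log2 fold change 0.48, edgeR adjusted p = 0.0207). DESeq2 did not call KSR1, and its call ended without sgRNA Ctrl replicate 2 or either sgNPM1A library, at log2 fold changes of 0.46, 0.50 and 0.45. NRAS, named for its mutation with its values known, had 59.1 and 51.9 CPM in sgRNA Ctrl and 53.4 and 57.0 CPM in sgNPM1A, which overlap (log2 fold change -0.01, edgeR adjusted p = 0.963).

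Of 13 tested adaptors and RAS exchange factors, GAB1 and RASGRP4 fell and RASGRP3 rose. This was 2 lower and 1 higher, against 10.3% and 10.5% of all tested genes. GAB1, a docking protein downstream of receptor kinases, went from 10.1 and 8.42 to 4.45 and 4.75 CPM, so both edited libraries lay far below the controls (log2 fold change -1.01, edgeR adjusted p = 0.000495). RASGRP4, an exchange factor of myeloid cells, went from 11.1 and 11.7 to 8.93 and 7.53 CPM (-0.47, edgeR adjusted p = 0.0211), and RASGRP3, a related exchange factor, from 0.236 and 0.541 to 1.00 and 0.900 CPM (1.28, edgeR adjusted p = 0.0392). DESeq2 called neither of these exchange factors. The RASGRP4 call ended without sgRNA Ctrl replicate 2 (-0.43) or sgNPM1A replicate 2 (-0.35), and the RASGRP3 call held only without sgRNA Ctrl replicate 2 (1.99) and ended in the other leave-one-out fits (0.81 to 1.36). Among the RAS GTPase-activating proteins, together with the RAS degradation adaptor LZTR1, 2 of 9 tested genes fell, against 10.3% of all tested genes. By edgeR, DESeq2 or limma 0 rose, with 1 higher at an unadjusted p below 0.05. The median log2 fold change of the list was -0.24. RASAL3 was 49.4 and 52.6 CPM in sgRNA Ctrl and 33.4 and 27.3 CPM in sgNPM1A (log2 fold change -0.75, edgeR adjusted p = 0.000253), and LZTR1 143.9 and 155.7 against 118.8 and 117.4 CPM (-0.34, edgeR adjusted p = 0.00362). Leaving out sgRNA Ctrl replicate 2 or sgNPM1A replicate 2 ended the LZTR1 call, at -0.28 and -0.33, and left RASAL3 as the only gene of the list called lower. NF1, which encodes the neurofibromin that SPRED proteins recruit and is named with its values known, was 70.5 and 63.9 against 57.1 and 56.1 CPM, lower in both edited libraries but under the fold threshold (log2 fold change -0.25, edgeR adjusted p = 0.0366).

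Of the other feedback relatives, 8 of 10 were tested and 1 was called, against 20.8% of all tested genes. This was DUSP16, a phosphatase of JNK and p38. It rose from 1.18 and 1.43 to 3.44 and 4.47 CPM (log2 fold change 1.60, edgeR adjusted p = 0.000389), the opposite direction to DUSP4. With all libraries none of this list fell (0 by edgeR, DESeq2 or limma, with 1 lower at an unadjusted p below 0.05). Leaving out sgRNA Ctrl replicate 1 gave 1 called lower, and leaving out either control library gave 2 called higher. SPRY3 and the receptor genes CSF2RA and IL3RA are pseudoautosomal and were listed at 0 in both copies, so nothing was read from them.

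Of 15 other tested genes that respond to ERK, 3 were called lower and 1 higher, against 10.3% and 10.5% of all tested genes. PHLDA1, an early response gene, fell most, from 881 and 865 counts in sgRNA Ctrl to 218 and 222 counts in sgNPM1A (log2 fold change -2.10, SE 0.10, edgeR adjusted p = 1.16e-07), further than any of the 10 feedback genes. CCND1, the cyclin D1 gene, went from 47.4 and 43.5 to 28.0 and 25.5 CPM (-0.76, edgeR adjusted p = 8.32e-05) and JUNB, a subunit of AP-1, from 116.3 and 122.7 to 98.1 and 90.8 CPM (-0.34, edgeR adjusted p = 0.00510). The JUNB call ended without sgRNA Ctrl replicate 2 (-0.30) or sgNPM1A replicate 2 (-0.29). EGR1, an immediate early zinc finger factor, rose, from 62.3 and 84.5 to 143.0 and 108.5 CPM (log2 fold change 0.78, SE 0.14, edgeR adjusted p = 0.00219), with replicates of each condition far apart but no overlap. The other 11 of the 15 tested genes were not called. The number called higher was 4 without sgRNA Ctrl replicate 2 and 2 without sgNPM1A replicate 2, against 1 with all libraries, and 2 genes in place of 3 were called lower in both of these fits. FOS and MYC, named for their role with their values known, were 29.8 and 32.7 against 37.6 and 33.8 CPM and 410.4 and 403.4 against 351.8 and 332.1 CPM. For FOS the log2 fold change was 0.19 (edgeR adjusted p = 0.149), and for MYC -0.25 (edgeR adjusted p = 0.0159), under the fold threshold.

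Of 11 tested ERK effectors, RPS6KA5, the MSK1 kinase gene, fell from 21.0 and 21.2 to 8.93 and 8.14 CPM (log2 fold change -1.31, edgeR adjusted p = 6.87e-06). ELK3, an ETS factor phosphorylated by ERK, fell from 43.3 and 37.4 to 26.4 and 23.4 CPM (-0.69, edgeR adjusted p = 0.000432). MKNK1, a kinase that phosphorylates the translation factor eIF4E, rose from 27.8 and 27.6 to 39.3 and 39.4 CPM (0.51, edgeR adjusted p = 0.000828). The replicates of all 3 genes lay close together beside these differences, and 8 genes of the list were not called. The 2 lower and 1 higher stood against 10.3% and 10.5% of all tested genes. The number called higher moved from 1 to 5 without sgRNA Ctrl replicate 1 and to 4 without sgNPM1A replicate 1, while 2 or 3 genes were called lower in each leave-one-out fit.

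Upstream of RAS, 4 FGF receptor genes were called lower and 4 hematopoietic receptor genes higher. Of all tested genes, 10.3% were called lower and 10.5% higher. Of 29 fibroblast growth factor (FGF) ligands, receptors and co-receptors 8 were tested, and the 4 tested receptor genes of the list were all called lower with all libraries, against 2 without sgRNA Ctrl replicate 1 and 2 without sgNPM1A replicate 2. FGFR3 went from 5.55 and 5.64 to 2.12 and 1.55 CPM (log2 fold change -1.61, edgeR adjusted p = 0.000110), FGFRL1, a receptor without a kinase, from 54.2 and 44.4 to 34.5 and 36.7 CPM (-0.47, edgeR adjusted p = 0.00552), and FGFR1 from 19.2 and 21.4 to 15.6 and 15.9 CPM (-0.37, edgeR adjusted p = 0.0204). FGFR4, outside the naming rule and named after its values were seen, was the remaining receptor, at 12.8 and 11.7 against 10.1 and 8.61 CPM (-0.39, edgeR adjusted p = 0.0426). DESeq2 called 2 and limma 3 of these 4 lower, FGFR4 being called by neither. The FGFR4 call ended without sgRNA Ctrl replicate 1 (-0.32) or sgNPM1A replicate 2 (-0.28). The FGFR1 call held only without sgRNA Ctrl replicate 1 (-0.44) and ended in the other leave-one-out fits (-0.38 to -0.29), and the FGFRL1 call ended without sgRNA Ctrl replicate 1 (-0.32). The ligand gene FGF18 was nearly silent in sgRNA Ctrl, at 1 count in both libraries, and reached 367 and 332 counts in sgNPM1A, a depth-adjusted ratio of 322 with a counting interval of 88.9 to 2667. FGF2, another ligand gene, had 1 and 3 counts against 16 and 11, a ratio of 6.23 with a counting interval of 2.17 to 24.5, and its call ended without sgRNA Ctrl replicate 1 or sgNPM1A replicate 1 (edgeR adjusted p = 0.0911 and 0.0542). Of 7 tested hematopoietic receptors 4 rose and 0 fell by edgeR, DESeq2 or limma, with 1 lower at an unadjusted p below 0.05 and 1 called lower without sgRNA Ctrl replicate 2. CSF3R, the granulocyte colony-stimulating factor receptor, went from 88.0 and 92.2 to 233.6 and 243.1 CPM (log2 fold change 1.40, edgeR adjusted p = 1.35e-07), CSF1R from 23.1 and 24.0 to 52.0 and 57.6 CPM (1.22, edgeR adjusted p = 2.35e-06) and FLT3 from 10.8 and 9.15 to 20.2 and 20.9 CPM (1.04, edgeR adjusted p = 5.73e-05). EPOR, outside the naming rule and named after its values were seen, was the other riser. This receptor list also held IGF1R and INSR, which are not receptors of blood cells only. IGF1R was the gene lower at an unadjusted p (log2 fold change -0.44, edgeR unadjusted p = 0.0145), and INSR was not called (0.11).

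**Figure D4:**
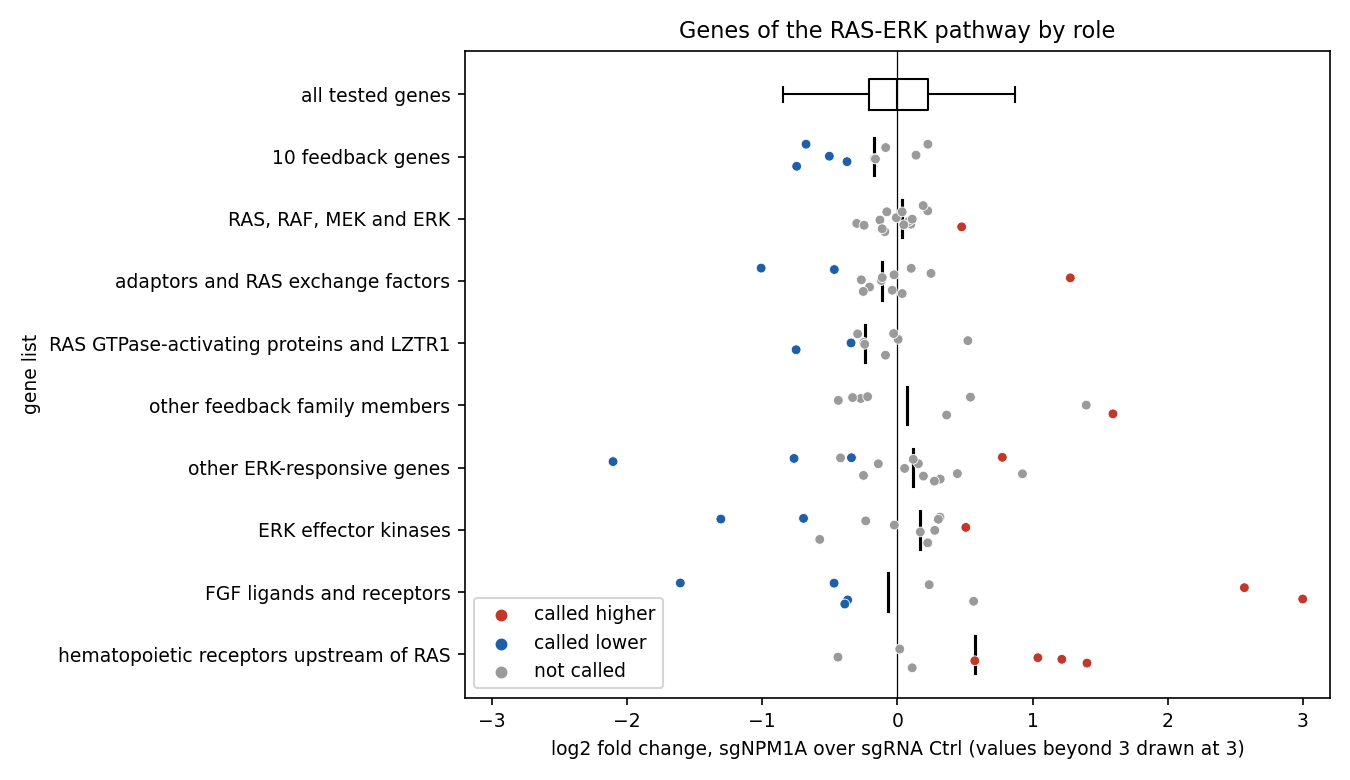
Log2 fold change, sgNPM1A over sgRNA Ctrl, of the tested genes in the feedback group and in each of the 8 other pathway lists, with 1 point a gene (red called higher, blue called lower, grey not called), a bar at each list's median and a box of quartiles for all tested genes with whiskers to the 5th and 95th percentiles. The feedback group (median -0.17) and the RAS GTPase-activating proteins (-0.24) sit lowest and the hematopoietic receptors (0.57) highest, and FGF18 is drawn at the edge of the axis.

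Genes listed as myeloid maturation markers moved in the same comparison. Of 12 tested genes of this list 10 rose, against 10.5% of all tested genes, and CD163 fell. Their median log2 fold change was 1.62, and the list summed to 3680 and 3682 CPM in sgRNA Ctrl and 9348 and 10116 CPM in sgNPM1A. The granule protein genes ELANE, AZU1, PRTN3 and CTSG had the highest sgRNA Ctrl means of the list, at 826, 834, 436 and 1177 CPM. The sum therefore rests largely on them in sgRNA Ctrl. LYZ, named after its values were seen, had the highest sgNPM1A mean of the list, 3005 CPM against 243 in sgRNA Ctrl. PRTN3 was next, at 2016 against 436 CPM. The list was not tested as a measure of maturation stage. The defining myeloid markers summed to 1161 and 1198 against 1341 and 1337 CPM, with ANPEP, SPI1 and MPO called higher and HOXA9 and MEIS1 called lower. Of 13 markers of other cell types with a row, 4 were tested, KRT18 and COL1A2 fell, and the list summed to 152.3 and 155.3 against 131.0 and 130.8 CPM. Most of that sum was NCAM1, an adhesion molecule of neural and natural killer cells, at 120.6 and 122.5 against 116.0 and 119.1 CPM, which was not called. The part of the change in these markers in the fall of the Sprouty genes and SPRED1 was not tested.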

How the data were processed

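Total RNA libraries from OCI-AML3 cells (2 sgRNA Ctrl and 2 sgNPM1A, 3 d after transfection) were analysed. Read pairs were aligned to hg38 by the authors, who used STAR and Samtools, and the deposited values are raw counts for each gene. The counting program, its strand setting and the annotation release were not given in the sources used here. Groups came from the sample labels. Of 58037 Ensembl rows, 55603 were paired with a symbol.

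Counts were filtered with filterByExpr (minimum count 10), scaled by TMM and fitted with edgeR 4.0.16 (R 4.3.3, quasi-likelihood F test, two-sided, robust, no replicate block), which tested 15718 genes. DESeq2 1.42.0, limma 3.58.1 on quantile-normalized log2 CPM (prior count 2), other scalings and filters, a replicate block and leaving out each library were alternatives. Adjusted p-values are Benjamini-Hochberg over all tested genes. The scripts were tested on simulated data. Libraries of a condition differed by more than sampling noise (chi-square per gene 9.20 and 4.19), so none was a duplicate. Intervals on count ratios are exact and cover counting error only.

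Gene positions and windows before start sites are from RefSeq (GRCh38.p14), and transcript lengths and overlapping genes from GENCODE. All 10 members and NPM1 are given, and in each other list the called genes, up to the 3 with the smallest adjusted p in each direction. The 3 nearest patterns to the most changed called member were sought among protein-coding genes averaging 5 CPM or more. The members and lists were chosen with earlier results of these data known.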

Additional observations from a re-analysis of the deposited data

How the results depend on the processing

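SPRY2, SPRY4 and SPRED1 were called lower under all 13 alternatives for single genes. DUSP4 was called under 7 of them, and the number of members called lower was 3 or 4 except with a fold of at least 2, which left 0. Leaving out each library in turn gave 3 in every case, with 0 called higher. In those fits the condition with 1 library was assumed to vary like the other. Leaving out a library moved the log2 fold change of DUSP6 between -0.24 and 0.0862, the positive value arising without sgRNA Ctrl replicate 2, and that of NPM1 between -0.26 and -0.18. limma on quantile-normalized values gave NPM1 a log2 fold change of -0.42, past the fold threshold. The cause was not tested. Of the other pathway genes, 13 were called lower and 11 higher, against 4 and 7 at a fold of at least 2. Leaving out a library gave 8 to 13 lower, the lowest without sgNPM1A replicate 2, and 10 to 14 higher.

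Libraries of the conditions shared only a replicate number, and the correlation of the deviations of same-numbered libraries was -0.13 over all tested genes and -0.52 over the 8856 genes above 10 mean CPM. With the replicate block 3 members were called lower, since DUSP4 was not called (edgeR adjusted p = 0.0752). A crossed pairing (sgRNA Ctrl 1 with sgNPM1A 2), added after seeing the data, gave 4 members lower, 16 other pathway genes lower and 16 higher, and 4 of the other feedback relatives higher.

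With 2 libraries in each condition and 4 to 14 counts for SPRY1, a difference of the size measured in that gene was not detectable at this depth. For DUSP5, with 177 to 221 counts, the interval was wide. The p-values measure only the spread between these libraries of 1 cell line.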
